A study of Mus musculus with 36 samples.

Results

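The butyrophilin-like genes *Btnl1*, *Btnl2*, *Btnl4* and *Btnl6* were followed in RNA of the mouse small intestine. They were the 4 member genes, chosen by name among the 27179 Entrez gene IDs counted in the 12 libraries of whole tissue, LPL and IEL preparations. All 4 were in the files and all 4 passed the filter on low counts, as 4 of the 14716 genes tested. Butyrophilin-like proteins are surface proteins of the immunoglobulin superfamily, related to the B7 co-signalling ligands. In the mouse small intestine *Btnl1* and *Btnl6* are made by villus enterocytes, where their products pair and act on the Vγ7 receptor of γδ intraepithelial lymphocytes, the T cells that live between enterocytes. Btnl1 also pairs with Btnl4, whereas Btnl2 is best known as a ligand that dampens T cell activation.

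The mice carried (WT) or lacked (KO) the long noncoding RNA lnc13. Whole tissue, lamina propria lymphocytes (LPL) and intraepithelial lymphocytes (IEL) came from lnc13-WT-DQ8 and lnc13-KO-DQ8 mice, all of them challenged with gluten, with 2 libraries of each genotype in each of the 3 preparations. CD8 IELs were labelled lnc13-WT and lnc13-KO with no DQ8 in their titles and had 3 libraries of each genotype without stimulation and 3 of each in the IL15 set, which the design text describes as 48 h of culture with the cytokine. The remaining samples, 6 CD8ab libraries and 6 libraries of RNA antisense purification, were not analysed here. Age, sex and the length of intestine taken were not given in the sources used here, lnc13 itself was not analysed here as a check of the labels, and the replicates are called biological without an animal being named, so a p-value measures the spread between these libraries.

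The 4 genes lie within the major histocompatibility complex on mouse chromosome 17 (GRCm38). *Btnl2* (Entrez 547431) spans chr17:34354789-34369492, *Btnl1* (100038862) chr17:34377123-34386162, *Btnl4* (632126) chr17:34468410-34477428 and *Btnl6* (624681) chr17:34507870-34518776. The transcribed pseudogene *Btnl5-ps* (81497), at chr17:34487405-34497429, lies between *Btnl4* and *Btnl6* and was counted as a gene of its own. The start-site windows of *Btnl1* and *Btnl2* from RefSeq (GRCm38.p6, 250 bases before to 50 after the start) are shown because both hold the letters CAAAGTCC, the core of the site of HNF4, a transcription factor of enterocytes. Capitals mark matches to 4 motifs searched on both strands, CAAAGTCC (HNF4), TTTAT (the caudal factors CDX), AGATAA (factors of the GATA family) and the palindromic site of HNF1, which were chosen with the promoter sequences in view and did not overlap here. The *Btnl1* window is chr17:34376882-34377181 and the *Btnl2* window chr17:34354572-34354871, both on the plus strand.
Btnl1: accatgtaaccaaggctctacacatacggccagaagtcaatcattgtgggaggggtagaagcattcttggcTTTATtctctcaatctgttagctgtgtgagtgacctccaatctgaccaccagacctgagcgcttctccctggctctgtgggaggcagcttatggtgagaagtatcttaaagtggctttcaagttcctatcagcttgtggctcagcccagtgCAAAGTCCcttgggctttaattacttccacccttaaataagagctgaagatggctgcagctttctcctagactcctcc
Btnl2: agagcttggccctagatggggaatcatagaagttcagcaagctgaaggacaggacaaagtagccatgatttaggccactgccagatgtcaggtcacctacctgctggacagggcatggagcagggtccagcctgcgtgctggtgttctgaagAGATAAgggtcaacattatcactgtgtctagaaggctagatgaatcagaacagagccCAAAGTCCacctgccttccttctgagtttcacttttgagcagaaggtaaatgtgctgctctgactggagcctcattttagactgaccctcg
The first letter of CAAAGTCC lay 28 bases upstream of the start in *Btnl1* and 41 bases upstream in *Btnl2*. It occurred in 1.44% of the 27025 windows of all genes. *Btnl1* also held TTTAT, present in 40.9% of windows, and *Btnl2* held AGATAA, present in 11.4%, whereas the HNF1 site was in neither window and in 0.118% of all.

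The windows of *Btnl4* and *Btnl6* are shown because of how alike they are. They lie on the minus strand at chr17:34475888-34476187 and chr17:34517303-34517602. The RefSeq starts that set them lie 1491 and 1424 bases inside the outer end of their genes, each on the first base of an atg. Which start is used in gut is not known here, so these windows may not hold promoters. They held none of the 4 motifs, which for that reason says nothing of the promoters of *Btnl4* and *Btnl6*.
Btnl4: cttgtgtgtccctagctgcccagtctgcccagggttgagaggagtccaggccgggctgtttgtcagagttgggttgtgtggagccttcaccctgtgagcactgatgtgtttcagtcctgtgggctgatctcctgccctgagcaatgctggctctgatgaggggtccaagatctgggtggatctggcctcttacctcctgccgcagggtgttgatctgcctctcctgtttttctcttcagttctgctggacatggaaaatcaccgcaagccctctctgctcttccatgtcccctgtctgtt
Btnl6: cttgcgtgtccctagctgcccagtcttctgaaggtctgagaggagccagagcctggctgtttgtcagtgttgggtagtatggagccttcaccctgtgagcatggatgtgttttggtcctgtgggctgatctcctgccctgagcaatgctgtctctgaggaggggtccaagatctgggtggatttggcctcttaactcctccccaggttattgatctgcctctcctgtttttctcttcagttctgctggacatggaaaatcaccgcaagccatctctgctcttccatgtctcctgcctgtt
In a global alignment 91.1% of the 302 aligned columns were identical and the longest shared run was 61 bases, against an identity of 51.6% to 53.4% and runs of 8 to 10 bases for the other pairs of windows. Where stretches of transcript are shared in the same way, the authors' counting could have split or dropped reads among *Btnl4*, *Btnl6* and *Btnl5-ps*, so the levels of these 3 are uncertain to that extent.

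Each of the 12 libraries held 10186522 to 13620975 reads in genes, and CPM here are counts scaled to library size with TMM factors. The preparations were mixtures. All 18 of the intraepithelial T cell genes listed were higher in IEL preparations than in tissue, yet the 10 pan-epithelial markers still summed to 10700 to 12200 CPM there, against 21100 to 28600 CPM in tissue and 9650 to 13500 CPM in LPL preparations. The 16 villus enterocyte markers summed to 32200 to 65100 CPM in tissue, 17700 to 30500 CPM in IEL and 2690 to 4990 CPM in LPL. LPL preparations held *Cd3e* at only 0.346 to 5.92 CPM, and the 12 exocrine pancreas markers summed to 6120 to 12700 CPM there, against at most 92.7 CPM elsewhere. WT LPL replicate 1 stood apart, with B and plasma cell markers at 5220 CPM against 560 to 2220 CPM in the other LPL libraries. In tissue, the proximal gene *Lct* (lactase) read 81.1 CPM in WT replicate 1 and 211 CPM in KO replicate 1, but 0.330 and 0.359 CPM in the replicates numbered 2. In RNA of such mixtures, fewer cells of a type and less RNA per cell cannot be told apart.

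All 4 butyrophilin-like genes were lowest in LPL preparations. *Btnl6* and *Btnl4* were highest in whole tissue, whereas *Btnl2* read highest in IEL preparations and *Btnl1* read 258 CPM on average in tissue and 195 CPM in IEL, with libraries that overlapped. The question here was where these epithelial genes are read along the preparations, with both genotypes weighted equally. Over all genes, edgeR's quasi-likelihood test called 55.3% of the 14716 genes different between LPL and tissue (28% lower and 27.3% higher), 45% between IEL and tissue (23.1% lower and 21.9% higher) and 19.4% between IEL and LPL (11.5% higher and 7.92% lower). Counts of members are to be read against those shares, since a call between preparations was common.

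*Btnl1*, the chain that pairs with Btnl6 and Btnl4, read 234 and 229 CPM in the WT tissue libraries and 327 and 241 CPM in the KO tissue libraries. In LPL it read 49.5 and 73.5 CPM in WT and 59.3 and 75.4 CPM in KO, and in IEL 153 and 202 CPM in WT and 191 and 235 CPM in KO. The LPL libraries lay below all others, while the tissue and IEL libraries overlapped. Means were 258 ± 46.4 CPM in tissue, 64.4 ± 12.3 CPM in LPL and 195 ± 33.8 CPM in IEL (SD, n = 4 each). *Btnl1* fell 3.98-fold from tissue to LPL (log2 -1.99, SE 0.19, edgeR adjusted p = 6.55e-05) and was 3.02-fold higher in IEL than in LPL (log2 1.59, SE 0.19, edgeR adjusted p = 0.000952). Between IEL and tissue the difference did not pass the threshold (log2 -0.40, SE 0.18, edgeR adjusted p = 0.104), and it did pass with DESeq2's Wald test (log2 -0.47, adjusted p = 0.048).

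*Btnl6*, the partner of *Btnl1* in the pair that acts on Vγ7 cells, read 328 and 525 CPM in WT tissue and 492 and 554 CPM in KO tissue. In LPL it read 51.5 and 73.9 CPM in WT and 73.5 and 70.8 CPM in KO, and in IEL 120 and 166 CPM in WT and 160 and 193 CPM in KO. The 3 preparations did not overlap, with tissue highest and LPL lowest. The tissue mean was 475 ± 101 CPM (SD, n = 4), the LPL mean 67.4 ± 10.7 CPM and the IEL mean 160 ± 30.0 CPM. *Btnl6* fell 7.02-fold from tissue to LPL (log2 -2.81, SE 0.21, edgeR adjusted p = 2.51e-05) and 2.97-fold from tissue to IEL (log2 -1.57, SE 0.20, edgeR adjusted p = 0.000666). It was 2.36-fold higher in IEL than in LPL (log2 1.24, SE 0.20, edgeR adjusted p = 0.00385).

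*Btnl4*, the other chain that pairs with Btnl1, had the narrowest range. It read 66.7 and 107 CPM in WT tissue, 89.6 and 130 CPM in KO tissue, 35.7 and 50.3 CPM in WT LPL and 44.0 and 48.7 CPM in KO LPL. In IEL the WT libraries read 56.7 and 52.7 CPM and the KO libraries 62.1 and 62.5 CPM. The order was again tissue, IEL, LPL with no overlap, but by small steps, with the lowest tissue library at 66.7 CPM and the highest IEL library at 62.5 CPM. *Btnl4* fell 2.19-fold from tissue to LPL (log2 -1.13, SE 0.19, edgeR adjusted p = 0.00126) and 1.67-fold from tissue to IEL (log2 -0.74, SE 0.19, edgeR adjusted p = 0.0126). IEL and LPL did not differ beyond the threshold (log2 0.39, SE 0.19, edgeR adjusted p = 0.184), with means of 58.5 ± 4.72 and 44.7 ± 6.54 CPM (SD, n = 4 each).

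*Btnl2* read 84.5 and 109 CPM in WT tissue and 141 and 103 CPM in KO tissue. In LPL it read 28.2 and 29.2 CPM in WT and 24.6 and 23.6 CPM in KO, and in IEL 110 and 182 CPM in WT and 157 and 170 CPM in KO. IEL libraries were thus at or above the tissue libraries, with the lowest IEL library inside the tissue range, and LPL libraries were far below both. Means were 109 ± 23.5, 26.4 ± 2.72 and 155 ± 31.6 CPM in tissue, LPL and IEL (SD, n = 4 each). The step from LPL to IEL was 5.87-fold (log2 2.55, SE 0.19, edgeR adjusted p = 0.00015), and from tissue to LPL *Btnl2* fell 4.12-fold (log2 -2.04, SE 0.19, edgeR adjusted p = 5.41e-05). The excess of IEL over tissue was 1.42-fold (log2 0.51, SE 0.18, edgeR adjusted p = 0.0447), and this call was not stable. It was lost with DESeq2 size factors (log2 0.44, edgeR adjusted p = 0.086), with DESeq2's Wald test (log2 0.44, adjusted p = 0.0727) and without any 1 of 10 libraries, where the log2 difference ranged from 0.32 to 0.68 over the 12 fits that each left out 1 library.

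**Figure D1:**
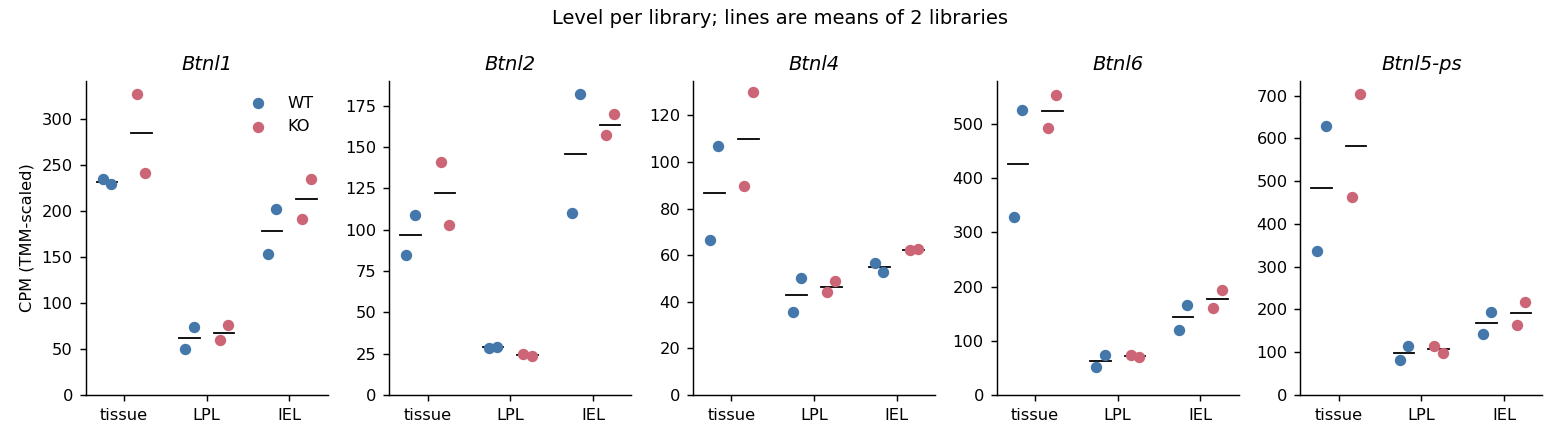
Level of *Btnl1*, *Btnl2*, *Btnl4*, *Btnl6* and the pseudogene *Btnl5-ps* in each library (CPM after TMM scaling, linear axes that start at 0), by preparation and genotype, with lines at the means of 2 libraries. The LPL libraries are the lowest for every gene, and *Btnl2* is the gene whose IEL libraries, at 110 to 182 CPM, reach above its tissue libraries, at 84.5 to 141 CPM.

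In counts, all 4 genes were lower in LPL than in tissue, 2 (*Btnl4*, *Btnl6*) were lower and 1 (*Btnl2*) higher in IEL than in tissue, and 3 (*Btnl1*, *Btnl2*, *Btnl6*) were higher in IEL than in LPL. Every LPL library lay below every tissue library for all 4 genes, which held for 25.1% of genes tested, and every IEL library lay above every LPL library for all 4, which held for 17.3%. Every IEL library lay below every tissue library for *Btnl4* and *Btnl6*, as for 22.9% of genes tested, and the reverse held for no member and for another 22.9%. The preparations also differed in handling: tissue was flash frozen and extracted with TRIzol, and cells with a column kit. Preparation and extraction cannot be told apart.

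**Figure D2:**
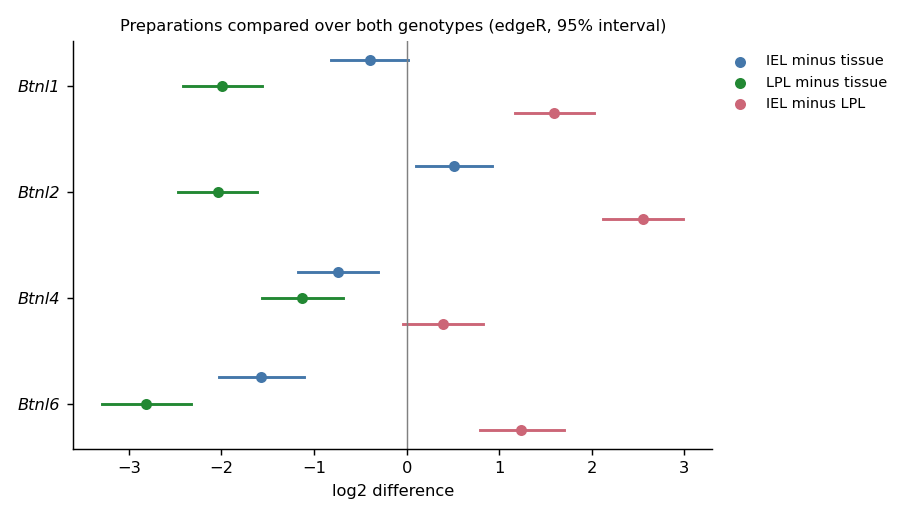
Log2 differences between preparations for the 4 genes (edgeR fit, points with 95% intervals), over both genotypes. All LPL minus tissue values lie below 0, from -2.81 for *Btnl6* to -1.13 for *Btnl4*, while IEL minus tissue runs from -1.57 for *Btnl6* to 0.51 for *Btnl2*.

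The pseudogene *Btnl5-ps* was well covered and followed the order of *Btnl6*. It read 336 to 703 CPM in tissue, 80.6 to 115 CPM in LPL and 142 to 217 CPM in IEL. It fell 5.20-fold from tissue to LPL (log2 -2.38, SE 0.26, edgeR adjusted p = 0.000125) and 2.97-fold from tissue to IEL (log2 -1.57, SE 0.25, edgeR adjusted p = 0.00164). In tissue the replicates numbered 2 exceeded those numbered 1 within each genotype for *Btnl4*, *Btnl6* and *Btnl5-ps*, by 130 against 89.6 CPM for *Btnl4* in KO, for example, and these were the libraries with *Lct* below 0.5 CPM. The part of region in these values was not tested.

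The levels were next set against the epithelial RNA of the same library, as log2(CPM + 1) of the gene minus the mean log2(CPM + 1) of the 10 pan-epithelial markers. By this measure *Btnl1* stood at -2.79 to -2.39 in tissue, -4.00 to -3.68 in LPL and -2.59 to -1.96 in IEL, and *Btnl2* at -4.01 to -3.60, -5.31 to -4.69 and -3.06 to -2.17. *Btnl6* stood at -2.05 to -1.45 in tissue, -3.84 to -3.69 in LPL and -2.93 to -2.24 in IEL. *Btnl4* moved least, from -4.33 to -3.68 in tissue, -4.42 to -4.30 in LPL and -4.00 to -3.85 in IEL. With 4 libraries against 4, the exact two-sided permutation test has 70 arrangements and a smallest p of 0.0286. That smallest p was reached for all 4 genes between IEL and LPL, where the differences were 1.64 for *Btnl1*, 2.54 for *Btnl2*, 0.44 for *Btnl4* and 1.28 for *Btnl6*, each higher in 4 of 4 IEL libraries. It was also reached between LPL and tissue for *Btnl1* (-1.26), *Btnl2* (-1.26) and *Btnl6* (-2.05), while *Btnl4* (-0.36) had an exact p = 0.0571. Between IEL and tissue it was reached for *Btnl2* (1.28) and *Btnl6* (-0.77), which did not pass after adjustment for the 4 tests (exact permutation, adjusted p = 0.0571 for both), nor did *Btnl1* (0.38, exact p = 0.0857) or *Btnl4* (0.08, exact p = 0.629).

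These values depended on which epithelial genes stood for the epithelium. Against the mean of the 16 villus enterocyte markers the LPL minus tissue differences turned positive, at 1.42 for *Btnl1*, 1.42 for *Btnl2*, 2.31 for *Btnl4* and 0.62 for *Btnl6*. The IEL minus LPL differences turned negative, at -1.37, -0.47, -2.57 and -1.73 in the same order. Against *Epcam* alone no member passed between LPL and tissue after the same adjustment, and *Btnl1*, *Btnl2* and *Btnl4* passed between IEL and tissue with differences of 1.38, 2.28 and 1.08. The villus markers themselves had a median log2 difference of -3.72 from tissue to LPL, where 15 of 16 fell and none rose, and of 2.60 from LPL to IEL, where 15 of 16 rose, beside medians of 0.03 and -0.03 over all genes. Among them *Fabp2*, which binds fatty acids in enterocytes, fell from 5540 CPM in tissue to 207 CPM in LPL, and *Krt20*, a keratin of mature enterocytes, from 4930 to 230 CPM. The 4 butyrophilin-like genes, with log2 differences of -2.81 to -1.13 from tissue to LPL, thus fell by less than the median villus marker and by more than the median pan-epithelial marker (-0.66).

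The balance between the chains also shifted between preparations. The log2 ratio of *Btnl6* to *Btnl1* (CPM + 1, not corrected for transcript length, so that only its change can be read) was 0.49 and 1.19 in WT tissue and 0.59 and 1.20 in KO tissue. In LPL it was 0.05, 0.01, 0.31 and -0.09, and in IEL -0.34, -0.28, -0.25 and -0.28, in the order WT 1, WT 2, KO 1, KO 2. Tissue libraries lay above all LPL libraries and these above all IEL libraries. The log2 ratio of *Btnl4* to *Btnl1* ran from -1.85 to -0.89 in tissue, from -0.62 to -0.42 in LPL and from -1.92 to -1.41 in IEL. That of *Btnl2* to *Btnl1* ran from -1.46 to -1.07 in tissue, from -1.63 to -0.79 in LPL and from -0.47 to -0.15 in IEL. LPL thus stood apart for *Btnl4* and IEL for *Btnl2*, as a description with no test of the ratio between preparations. Between genotypes, no ratio passed an exact permutation test within preparations (216 arrangements, smallest p 0.00926): KO minus WT was -0.13 for *Btnl2* (exact p = 0.380), -0.01 for *Btnl4* (exact p = 0.935) and 0.06 for *Btnl6* (exact p = 0.630).

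**Figure D3:**
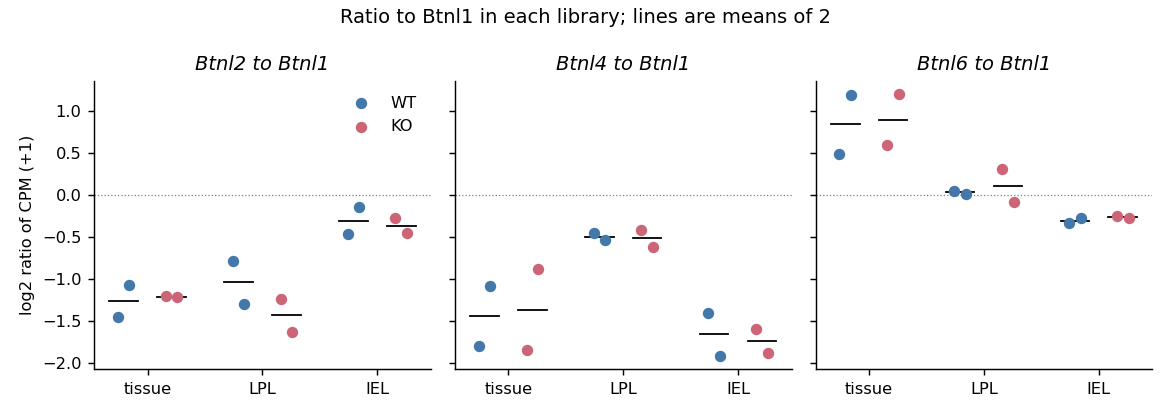
Log2 ratio of *Btnl2*, *Btnl4* and *Btnl6* to *Btnl1* within each library (CPM + 1), by preparation and genotype, with lines at means of 2 libraries. For *Btnl6* the tissue libraries lie at 0.49 to 1.20 and the IEL libraries at -0.34 to -0.25, and for this ratio WT and KO lie close together in each preparation. For *Btnl2* in LPL they lie farther apart, at -0.79 and -1.30 in WT and -1.24 and -1.63 in KO.

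No difference of these genes between lnc13 KO and WT passed the adjusted threshold. In each preparation and over the 3 together, edgeR called 0 of the 14716 genes (0%), with an unadjusted p under 0.05 for 463 genes in tissue (3.15%), 448 in LPL (3.04%), 120 in IEL (0.815%) and 451 over the 3 (3.06%). DESeq2's Wald test called 6, 1, 1 and 1 genes, with no butyrophilin-like gene among them. In tissue the log2 difference of KO from WT was 0.30 for *Btnl1* (SE 0.26), 0.34 for *Btnl2* (SE 0.25), 0.33 for *Btnl4* (SE 0.27) and 0.30 for *Btnl6* (SE 0.28). In IEL it was 0.26, 0.16, 0.19 and 0.30 in the same order, and in LPL 0.13, -0.25, 0.11 and 0.20, with SE of 0.25 to 0.28 and an edgeR adjusted p of 1.0 for each.

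Over the 3 preparations the log2 difference was 0.23 for *Btnl1* (95% interval -0.11 to 0.57), 0.08 for *Btnl2* (-0.25 to 0.42), 0.21 for *Btnl4* (-0.14 to 0.56) and 0.27 for *Btnl6* (-0.10 to 0.63). They hold for TMM scaling without a replicate block, and with library size only the differences were 0.08, -0.07, 0.05 and 0.11 in the same order. The difference was above 0 in all 3 preparations for *Btnl1*, *Btnl4* and *Btnl6*, as it was for 18% of genes tested. By TMM-scaled CPM, both KO libraries lay above both WT libraries for *Btnl1* in tissue (13.3% of genes) and for *Btnl4* in IEL (14.8%). They did so for no member in LPL (9.89%) and lay below both WT libraries for *Btnl2* there (8.6%). No interaction between genotype and preparation passed for any of the 4 (edgeR interaction contrasts, adjusted p of 1.0 for each). The widest gap was that of *Btnl2* between LPL and tissue (log2 -0.59, SE 0.36).

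Libraries that share a replicate number deviated together across genotypes in each preparation (correlations of 0.638 in tissue, 0.301 in LPL and 0.465 in IEL after group means were removed). By TMM-scaled CPM, the KO library lay above the WT library of the same number in 6 of 6 pairs for *Btnl1*. That held for 3.49% of genes tested. It lay above in 5 of 6 for *Btnl4* and *Btnl6* and in 2 of 6 for *Btnl2*. In tissue replicate 2, *Btnl1* had 2778 of 13620975 reads in WT and 2017 of 11446801 in KO. In LPL replicate 1 it had 661 of 10969733 and 685 of 11813055, so by library size both pairs went the other way. The block fits below also used TMM scaling. With the number within each preparation as a block, the mean log2 difference was 0.23 for *Btnl1* (edgeR unadjusted p = 0.0267, adjusted p = 0.426) and 0.22 for *Btnl4* (edgeR unadjusted p = 0.0194, adjusted p = 0.417). It was 0.29 for *Btnl6* (edgeR unadjusted p = 0.036, adjusted p = 0.429) and 0.09 for *Btnl2* (edgeR unadjusted p = 0.495, adjusted p = 0.799). None passed after adjustment over all genes, of which 0 were called and 1691 (11.5%) had an unadjusted p under 0.05 in this fit, against 451 without the block. In tissue alone that number was 1727 (11.7%) against 463, and *Btnl4* had a log2 difference of 0.35 (edgeR unadjusted p = 0.0268, adjusted p = 0.363).

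Epithelial marker lists also leaned with genotype in the same libraries after TMM scaling, with no marker called. The TMM factors of tissue were 1.03 and 0.89 in WT and 0.85 and 0.73 in KO, and a lower factor raises CPM. With library size only, the median log2 difference of all genes was -0.29 for KO in tissue. The marker lists were not computed with that scaling. The 16 villus enterocyte markers summed to 32200 and 56800 CPM in WT tissue and 61800 and 65100 CPM in KO tissue, and to 17700 and 24400 CPM in WT IEL and 25700 and 30500 CPM in KO IEL. Of these markers, 15 of 16 had a log2 difference above 0 in tissue (median 0.58), 12 in LPL (median 0.14) and 16 in IEL (median 0.37), beside medians of -0.01, 0.01 and -0.02 over all genes. The 10 pan-epithelial markers had medians of 0.35, 0.14 and 0.06. All 10 crypt stem and proliferation genes lay below 0 in tissue (median -0.49) and in IEL (median -0.25), and 8 of 10 lay above 0 in LPL (median 0.21). The part of these lists in the values of the butyrophilin-like genes was not tested. Set against the pan-epithelial markers, KO minus WT was 0.07 for *Btnl1* (exact permutation p = 0.602), -0.06 for *Btnl2* (0.722), 0.06 for *Btnl4* (0.389) and 0.13 for *Btnl6* (0.389), with genotypes permuted within preparations. Single libraries set much of the KO differences. Without WT tissue replicate 1 those of tissue were 0.31 for *Btnl1*, 0.17 for *Btnl2*, 0.03 for *Btnl4* and -0.01 for *Btnl6*, and without WT tissue replicate 2 they were 0.22, 0.47, 0.64 and 0.60 in the same order. Without WT LPL replicate 1 those of LPL were -0.13, -0.28, -0.12 and -0.04, and without WT LPL replicate 2 they were 0.43, -0.23, 0.37 and 0.48.

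**Figure D4:**
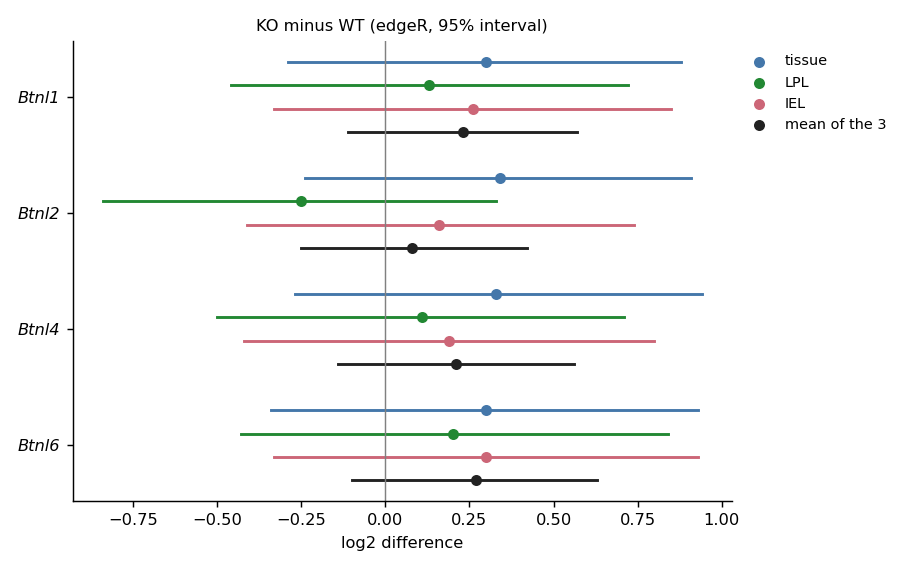
Log2 difference of KO from WT for the 4 genes in tissue, LPL and IEL and as the mean of the 3 (edgeR fit, points with 95% intervals). Every interval, from the fit without a replicate block, spans 0, and the means of the 3 lie between 0.08 for *Btnl2* and 0.27 for *Btnl6*.

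The cells on which these proteins act were read in the same libraries. Of 27 γδ T cell names listed, 18 were in the files and 11 passed the filter. 9 of the 11 were higher in IEL than in tissue, beside 21.9% of all genes. Lower was 1 of them, the transcription factor *Sox13* (log2 -1.84, edgeR adjusted p = 0.000248), beside 23.1%. The list median was 3.62 on the log2 scale beside 0.05 over all genes. *Trdc*, the constant segment of the δ receptor chain, read 32.2 ± 11.2 CPM in IEL, 2.65 ± 0.413 CPM in tissue and 0.734 ± 0.76 CPM in LPL (SD, n = 4 each). *Trgv7*, the variable segment on which Btnl1 and Btnl6 act, read 8.2 and 12.7 CPM in WT IEL and 11.1 and 14.4 CPM in KO IEL, but at most 1.3 CPM elsewhere. *Trgv7* was higher in IEL than in tissue (log2 3.82, edgeR adjusted p = 0.00592), while its KO difference in IEL was 0.29 on the log2 scale with an edgeR adjusted p of 1.0. None of the 11 was called between genotypes in any preparation. Their median log2 KO difference was 0.03 in tissue, -2.81 in LPL and -0.28 in IEL. In LPL *Trdc* and *Trgv7* were near 0 CPM in most libraries. Both were highest there in WT replicate 1, at 1.8 and 0.599 CPM, against at most 0.617 and 0.0648 CPM in the other LPL libraries. The part of that library in the LPL median was not tested.

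Of 17 other epithelial signals to intraepithelial T cells listed, 15 passed the filter. Counted in either direction, their calls came at a share near that over all genes. From tissue to LPL 7 of the 15 fell and none rose (median log2 -0.45), beside 28% and 27.3% of all genes. From LPL to IEL 4 rose and none fell (median 0.58), beside 11.5% and 7.92%. From tissue to IEL 4 rose and 2 fell (median 0.19), beside 21.9% and 23.1%. *Il15*, the cytokine that sustains these lymphocytes, fell by 1.24 on the log2 scale from tissue to LPL (edgeR adjusted p = 0.00343) and rose 1.45 from LPL to IEL (edgeR adjusted p = 0.00574). *H2-T3*, which encodes the ligand TL of CD8αα, read 71.5 CPM in tissue, 31.9 CPM in LPL and 132 CPM in IEL, and was higher in IEL than in tissue (log2 0.88, edgeR adjusted p = 0.0406), the direction seen for *Btnl2*. *Il18* had the same order (48.0, 24.4 and 70.9 CPM). *Cxadr*, an epithelial junction protein and ligand of γδ T cells, was lower in IEL than in tissue (log2 -1.46, edgeR adjusted p = 0.00244), the direction seen for *Btnl6*. *Cdh1*, the E-cadherin bound by αEβ7 integrin, passed no preparation test (log2 -0.44, -0.30 and -0.14).

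Among 22 transcription factors of gut epithelium, 12 fell and 2 rose from tissue to LPL, beside 28% and 27.3% of all genes. From tissue to IEL 8 fell and 1 rose, beside 23.1% and 21.9%. Counted in either direction, these calls came at a share near that over all genes. *Hnf4a* read 1610 CPM in tissue, 752 CPM in LPL and 709 CPM in IEL and fell in both preparations (log2 -1.09 and -1.17, edgeR adjusted p = 0.00598 and 0.006). Its paralog *Hnf4g* fell in LPL only by test (log2 -0.81, edgeR adjusted p = 0.0291) and did not pass in IEL against tissue (log2 0.07, edgeR adjusted p = 0.842). *Maf*, a regulator of enterocyte genes, fell by 3.05 from tissue to LPL and fell by 1.23 from tissue to IEL on the log2 scale (edgeR adjusted p = 5.77e-05 and 0.00606) and rose 1.82 from LPL to IEL (edgeR adjusted p = 0.00269). *Cdx1* passed in no comparison of preparations (log2 -0.51, -0.06 and -0.45). None of the 22 was called between genotypes.

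Genes that mark the length of the intestine differed between the preparations. All 10 distal genes were lower in IEL than in tissue (median log2 -2.13) and all 10 were lower in LPL (median log2 -4.28), led by *Slc10a2*, the ileal bile acid transporter, at 715, 2.77 and 2.91 CPM in tissue, LPL and IEL. Of 9 proximal genes tested, 6 rose and 3 fell from tissue to IEL (median log2 2.46), and *Cyp2c66*, a cytochrome P450, read 0.366 CPM in tissue and 91.5 CPM in IEL. *Fabp6*, the ileal bile acid binding protein, read 3730 to 5740 CPM in tissue and 83.3 to 214 CPM in IEL. The part of region in the differences of *Btnl2* and *Btnl6* between IEL and tissue was not tested.

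The genes with the most similar profile over the 12 libraries were found by the root mean square difference of centred log2(CPM + 1) values among 10137 genes. For *Btnl1* they were *Nat8f4* (0.144), *Tmem19* (0.154), *Pdk2* (0.161), *Smim24* (0.167) and *Cmbl* (0.17), of which *Pdk2* encodes a kinase of pyruvate dehydrogenase. For *Btnl6* they were *Slc7a9* (0.15), *Tesk2* (0.157), *Pstpip2* (0.171), *Mall* (0.178) and *Xpnpep1* (0.192), of which *Slc7a9* encodes a chain of the cystine transporter of the brush border and *Xpnpep1* an aminopeptidase. *Slc7a9* read 499, 61.4 and 154 CPM in tissue, LPL and IEL, beside 475, 67.4 and 160 CPM for *Btnl6*. For *Btnl4* they were *Nipsnap3b* (0.099), *Chmp4c* (0.109), *Oip5os1* (0.111), *Cltc* (0.112) and *Nckap1* (0.113), of which *Cltc* encodes the clathrin heavy chain. For *Btnl2* they were *Kifc3* (0.246), *Xdh* (0.247), *Ttc39c* (0.267), *Cgref1* (0.274) and *Soat2* (0.279), of which *Xdh* encodes xanthine dehydrogenase and *Soat2* the enterocyte enzyme that esterifies cholesterol. Distances between members ran from 0.471 for *Btnl1* and *Btnl2* to 0.912 for *Btnl2* and *Btnl4*. The nearest genes were picked as the smallest distances among 10137, so their closer fit does not show that the members are unlike each other. *Btnl5-ps* ranked 21 for *Btnl6* (0.239) and 787 for *Btnl1* (0.565), farther from *Btnl1* than *Btnl2* (0.471) and *Btnl6* (0.526) were. These distances describe 12 libraries of 3 preparations, and the points share library and depth.

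Of 31 other genes annotated within 200 kb of a member, 25 were in the files and 24 passed the filter, among them class II and antigen processing genes of the complex. From tissue to LPL 10 fell and 1 rose (median log2 -0.60), beside 28% and 27.3% of all genes. From tissue to IEL 9 fell and 2 rose (median -0.39), beside 23.1% and 21.9%. In either direction, these calls came at a share near that over all genes, and none was called between genotypes. The class II chains *H2-Ab1* (log2 -3.04, edgeR adjusted p = 0.00488) and *H2-Aa* (log2 -4.52, edgeR adjusted p = 0.0125) were among those lower in IEL than in tissue, and *Tap1*, a subunit of the peptide transporter, was too (log2 -0.90, edgeR adjusted p = 0.0322). *Notch4*, *Pbx2* and *Atf6b*, at the other end of the window, passed in neither comparison with tissue. Of 27 names of butyrophilin and B7 relatives, 25 were in the files and 7 passed the filter: *Btnl5-ps*, *Cd274*, *Pdcd1lg2*, *Cd80*, *Cd86*, *Icosl* and *Cd276*. Apart from *Btnl5-ps* only *Cd276*, a B7 ligand, was called, at a higher level in LPL than in tissue (log2 1.02, edgeR adjusted p = 0.0297). The *Skint* genes, butyrophilin relatives that act on γδ T cells of the skin, stayed at or below 2.4 CPM.

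CD8 IELs, whose libraries recovered 16428511 to 23762128 reads without stimulation and 14724754 to 26997371 in the IL15 set, held few reads of these genes, and the highest values of *Btnl4* and *Btnl6* came from single libraries. *Cd8a*, the marker of the sort, read 20400 to 25200 normalised counts without stimulation. *Btnl1* read 4.35, 6.25 and 4.01 normalised counts in the unstimulated WT libraries and 1.02, 2.79 and 1.33 in the KO libraries. *Btnl2* read 0, 4.69 and 1.00 in WT and was listed at 0 in all 3 KO libraries. *Btnl6* read 1.74, 42.2 and 0 in WT and 6.10, 345 and 2.66 in KO, with 371 of its reads in KO replicate 2. *Btnl4* read 0, 0 and 1.00 in WT and 5.09, 13.9 and 258 in KO, with 194 reads in KO replicate 3, and *Btnl5-ps* read 107 normalised counts in WT replicate 1 and was listed at 0 in the other 5 libraries.

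All 3 KO libraries thus lay above all 3 WT libraries for *Btnl4*, as for 3.81% of the 17208 genes tested. *Btnl1* lay the other way, with WT libraries at 4.01 to 6.25 and KO libraries at 1.02 to 2.79 normalised counts. The share of genes in that direction was not computed. In limma on log2(value + 1), *Btnl4* differed by 4.51 (SE 1.54, unadjusted p = 0.0221, limma adjusted p = 0.903) and *Btnl6* by 2.08 (SE 2.16, limma adjusted p = 0.903), and 0 genes were called (0%), with 575 at an unadjusted p under 0.05 (3.34%). *Btnl4* reached the filter, a mean of 5 normalised counts, only through its KO libraries. Its separation and its p-value are thus no support for a difference between genotypes. *Btnl1* and *Btnl2* did not reach that mean and were not tested. The epithelial genes *Epcam* and *Vil1* were as uneven, at 1260 and 3430 normalised counts in WT replicate 3 against at most 2.79 and 240 in the others. KO replicate 3, with 194 reads of *Btnl4*, held the 240 normalised counts of *Vil1* and had *Epcam* listed at 0, and KO replicate 2, with 371 reads of *Btnl6*, read 2.79 for *Epcam* and 0.929 for *Vil1*. WT replicate 3, the highest for both epithelial genes, held 1 read of *Btnl4* and 0 of *Btnl6*. Their part in the values of *Btnl4* and *Btnl6* was not tested. In the IL15 set each member had at most 4 reads in any library and none was tested. There 0 of 16371 genes were called (0%, with 11.2% at an unadjusted limma p under 0.05). The 2 epithelial genes parted in this set, with *Epcam* at 668 to 3070 normalised counts and *Vil1* at only 3.74 to 46.5.

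**Figure D5:**
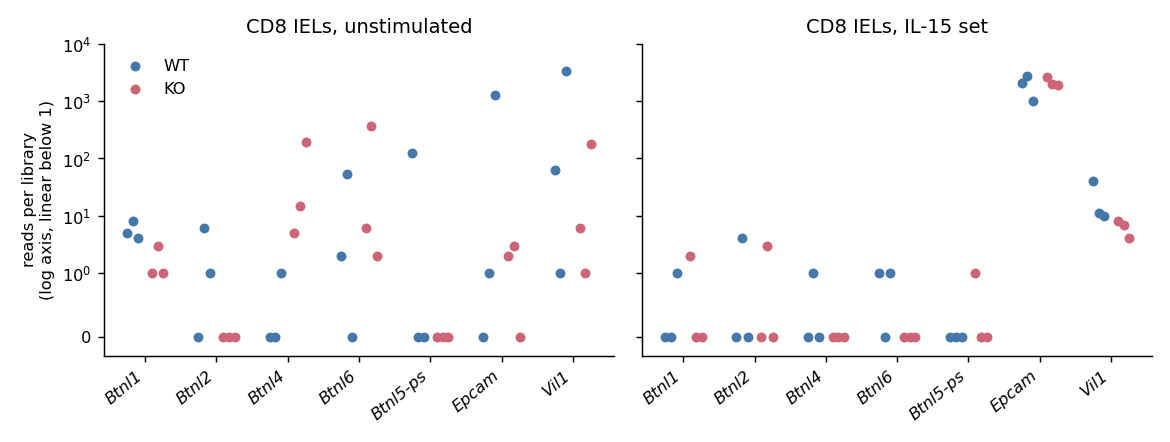
Reads per library of the butyrophilin-like genes and of *Epcam* and *Vil1* in CD8 IELs (log axis, linear below 1 so that 0 can be drawn), unstimulated and in the IL15 set, for 3 WT and 3 KO libraries each. The highest points of *Btnl4* and *Btnl6*, 194 and 371 reads, come from single libraries, and in the IL15 set no member exceeds 4 reads.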

How the data were processed

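Poly(A) RNA was sequenced from tissue, LPL, IEL and CD8 samples, per the labels. The deposited tables of tissue, LPL and IEL hold raw read counts per Entrez gene from HISAT2 alignments per the file headers, while TopHat, featureCounts, DESeq and the mm10 build stand in the submitters' processing notes, so the aligner is recorded in different ways. For CD8 cells the authors deposited a signal per Ensembl gene, namely read counts that had been divided by 1 size factor per library, as tested on the values (every column became whole numbers within 0.01 after multiplication by 1 factor, which gave the reads printed here). For those samples the tools named by the submitters' processing notes are BWA, DESeq, DESeq2, STAR, TopHat, deepTools and featureCounts, with no role for each. Whether counting used strand is not given in the sources used here. Of 27179 Entrez IDs, 25275 had a symbol, as did 51486 of 78275 Ensembl IDs. Coordinates are those of a RefSeq GRCm38 annotation.

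The 12 count libraries were fitted as 6 groups with edgeR 4.0.16 in R 4.3.3 (quasi-likelihood, TMM, filterByExpr, Benjamini-Hochberg over all genes at 0.05), which was tested on simulated data. CD8 values were tested with limma 3.58.1 on log2(value + 1) after genes whose mean was below 5 had been left out. Ratios used exact permutation tests in Python 3.11.15, with a pseudocount of 1. DESeq2 1.42.0, other scalings, filters, pseudocounts and epithelial denominators, a replicate block and leaving out each library were tried. Where a fit left 1 library in a group, that library was assumed to vary like the others. Depth was 10186522 to 13620975 reads for the 12 count libraries, and counting error bears most on these genes in CD8 cells.

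The members, gene lists and tests were chosen with earlier results of these data known. Named genes were the 4 members, the 5 genes with the most similar profile to each (mean of at least 5 CPM, predicted genes and receptor segments left out), genes within 200 kb, and up to 4 genes of a list by smallest p. *Hnf4a*, *Hnf4g*, *Cdx1*, *Cdh1*, *Slc10a2* and *Trgv7* were added with their values seen, and *Lct* and *Fabp6* to describe region. After removal of group means, the WT and KO libraries that share a number had a correlation of 0.638 (tissue), 0.301 (LPL) and 0.465 (IEL), each over 0.1, so values with the number as a block stand beside the KO results. The sources used here do not say what a number marks.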

Additional observations from a re-analysis of the deposited data

How the results depend on the processing

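With 2 libraries per group, the preparation differences of *Btnl1*, *Btnl2*, *Btnl4* and *Btnl6* were mostly above the spread between libraries, while KO differences of the size measured passed no adjusted test with or without a replicate block. In unstimulated CD8 cells *Btnl1* and *Btnl2* had too few reads to test, and the highest values of *Btnl4* and *Btnl6* came from single libraries. The alternatives were other scalings, no filter on low counts, each preparation fitted alone, other pseudocounts, DESeq2's Wald test, a replicate block and leaving out each library. The number of the 4 genes called stayed at 4 between LPL and tissue and at 3 between IEL and LPL when each library was left out, and was 0 in every KO contrast under each alternative run. Between IEL and tissue it was 2 to 3, because *Btnl2* lost its call in 10 of those fits. *Btnl1* was called there with DESeq2's Wald test (log2 -0.47). In the IL15 set no member passed the filter, so no alternative was run. Over values of single genes, 265 of 299 alternatives that kept all libraries and 601 of 671 that left 1 out kept direction and side of the threshold. The cause of the changes below was not tested.

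With library size only, the median log2 difference of all genes was -0.29 for KO in tissue and -0.18 for KO over the preparations. It was 0.45 for LPL against tissue and 0.24 for IEL against tissue. With TMM scaling these medians were -0.01, -0.02, 0.03 and 0.05. Under library size only, the KO difference turned to -0.01 for *Btnl4* in LPL and to -0.07 for *Btnl2* over the 3 preparations. The IEL minus tissue gap of the KO differences turned to 0.16 for *Btnl1*, 0.01 for *Btnl2* and 0.04 for *Btnl4*, and the LPL minus tissue gap to 0.04 for *Btnl6*. The IEL minus tissue gap of *Btnl6* was -0.01 with DESeq2 size factors and with DESeq2's Wald test.

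With the replicate number as a block, that gap of *Btnl6* was -0.02, and no call of the 4 genes changed, *Btnl2* between IEL and tissue included (log2 0.50, edgeR adjusted p = 0.0419). Calls over all genes went from 2856 to 2050 between IEL and LPL, from 6629 to 5647 between IEL and tissue and from 8134 to 7136 between LPL and tissue. Libraries of the same number and genotype correlated at -0.362 (WT) and -0.064 (KO) between LPL and IEL, so a block with the LPL numbers crossed was added after the data were seen, which called 3761, 7304 and 8703 genes. Between preparations the shared numbers were not taken as pairs. Between genotypes the block raised the genes with an unadjusted p under 0.05 from 451 to 1691 over the 3 preparations, from 463 to 1727 in tissue, from 448 to 678 in LPL and from 120 to 569 in IEL, with 0 called in each.

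Per epithelial content, the KO difference turned to -0.10 for *Btnl1*, -0.11 for *Btnl4* and -0.04 for *Btnl6* with the villus markers as the denominator, and to -0.01 for *Btnl1* and -0.02 for *Btnl4* with *Epcam*. With the villus markers, IEL minus tissue turned to -0.25 for *Btnl4*, LPL minus tissue to 1.42 for *Btnl1*, 1.42 for *Btnl2*, 2.31 for *Btnl4* and 0.62 for *Btnl6*, and IEL minus LPL to -1.37, -0.47, -2.57 and -1.73. With *Epcam*, IEL minus tissue turned to 0.22 for *Btnl6* with 3 genes called in place of 0, and LPL minus tissue to 0.58 for *Btnl4* with 0 called in place of 3.

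When each library was left out in turn, the KO difference ranged from -0.01 to 0.5 for *Btnl1*, from 0.03 to 0.56 for *Btnl2*, from 0.03 to 0.64 for *Btnl4* and from -0.01 to 0.6 for *Btnl6* in tissue. In LPL it ranged from -0.13 to 0.43 for *Btnl1*, from -0.12 to 0.37 for *Btnl4* and from -0.04 to 0.48 for *Btnl6*. For *Btnl2* it ranged from -0.15 to 0.61 in IEL and from -0.02 to 0.23 over the 3 preparations. The gap of the KO differences between IEL and tissue ranged from -0.23 to 0.28 for *Btnl1*, -0.49 to 0.29 for *Btnl2*, -0.44 to 0.16 for *Btnl4* and -0.29 to 0.32 for *Btnl6*. Between LPL and tissue it ranged from -0.42 to 0.17 for *Btnl1*, -0.51 to 0.08 for *Btnl4* and -0.37 to 0.21 for *Btnl6*, and between IEL and LPL from -0.18 to 0.39, -0.18 to 0.31 and -0.18 to 0.36. Per epithelial content, the KO difference ranged from -0.03 to 0.16 for *Btnl1*, -0.21 to 0.08 for *Btnl2* and -0.04 to 0.16 for *Btnl4*, and IEL minus tissue of *Btnl4* from -0.03 to 0.19. The KO difference of the ratio to *Btnl1* ranged from -0.17 to 0.15 for *Btnl4* and from -0.06 to 0.18 for *Btnl6*. Without WT tissue replicate 1, *Btnl4* per epithelial content passed between LPL and tissue (-0.47). In unstimulated CD8 cells the KO difference of *Btnl6* ranged from 0.06 to 3.65.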
